A study of Mus musculus with 17 samples.

Results

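Among 17 mammary tumours of FVB mice profiled on Affymetrix arrays, 9 carry the Squamous histology label, and these 9 differ in their Myc level. The groups were chosen by the measured value of the Myc probe set: 5 tumours had a log2 value of 11 or above (high Myc) and 4 had a value below 11 (low Myc). All 9 share the same genotype label, an MMTV-driven Myc T58A transgene described as low expressing, in the same strain, and the labels record no treatment and no age. The MMTV promoter acts mainly in mammary epithelium and responds to steroid hormones. T58A is a form of Myc in which a threonine that marks the protein for degradation is replaced by alanine. Nothing in the labels ties each tumour to an animal of its own. The p-values therefore reflect the spread among the 9 tumours alone, and some of that spread may be technical. The number of arrays limits the precision of every value.

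Myc is a transcription factor that pairs with Max and binds the E-box sequence CACGTG near gene starts. It is known for raising genes of ribosome production, nucleotide and polyamine synthesis and translation, and for lowering cell-cycle inhibitors and genes of differentiation and adhesion. In the mammary gland, alveolar cells make milk under the control of prolactin, which acts through the transcription factor Stat5. Squamous tumours contain cells that follow the program of skin instead, from basal keratinocytes to cornified cells.

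Myc was 11.84 in Squamous 1, 12.29 in Squamous 2, 11.40 in Squamous 6, 12.15 in Squamous 7 and 11.87 in Squamous 8. It was 10.16 in Squamous 3, 10.42 in Squamous 4, 9.79 in Squamous 5 and 9.94 in Squamous 9. The means were 11.91 ± 0.34 (SD, n = 5) and 10.08 ± 0.28 (SD, n = 4), a difference of 1.83, or 3.56-fold. These values set the groups and are a description without a test. The tumours nearest the threshold were Squamous 6, at 11.40, and Squamous 4, at 10.42, 0.98 apart. Myc was read by 1 probe set, and whether it reads the transgene, the mouse gene or both is not given in the sources used here. Of the 8 tumours with other histology labels, 1 had a Myc value of at least 11, and none of them entered the comparison.

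The deposited values were on a log2 scale, with array medians of 7.23 to 7.36 in the 9 tumours. Squamous 9, in the low group, stood apart: it was the only Squamous array with TM in its title, its lowest value was 2.47 against 3.07 to 3.21 on the other arrays, and its SD over probe sets was 2.46 against 2.25 to 2.28. Squamous 7 and Squamous 8, both with high Myc, share a number in their titles. Squamous 1 and Squamous 2, also both with high Myc, had the lowest means of the fibroblast matrix genes, 8.34 and 8.92 against 10.13 to 11.54 in the other tumours. The 3′ minus 5′ difference of the Gapdh control probe sets, a measure of RNA breakdown, was 0.25 ± 0.10 (SD, n = 5) with high and 0.11 ± 0.09 (SD, n = 4) with low Myc (exact two-sided permutation test, p = 0.0873, adjusted p = 0.175). For beta-actin it was 0.81 ± 0.10 (SD, n = 5) and 0.74 ± 0.12 (SD, n = 4) (exact permutation p = 0.333).

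The Squamous label was set against keratinocyte markers. Krt14, a keratin of basal keratinocytes, lay between 10.58 and 14.16 in the 9 tumours, and its partner Krt5 between 8.89 and 12.62. Krt10, a keratin of the layers above the basal one, ranged from 6.61 in Squamous 8 to 14.46 in Squamous 9. Krt14 was therefore high in all 9 tumours, Krt5 was lower in Squamous 2, at 8.89, and Squamous 8, at 9.64, than in the others, and Krt10 varied widely. Ivl, a cornified envelope precursor, was low in all 9 tumours, between 5.25 and 6.63. Means of suprabasal and cornified envelope genes over the 9 tumours ran from 4.62 for Krt13 to 12.10 for Krt6a. Not every marker of the skin program was therefore high.

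No gene passed an adjusted p of 0.05 between high and low Myc in limma, 0% of 12392 genes tested with Myc itself left out. At an unadjusted p under 0.05, limma found 1165 genes higher with high Myc (9.4%) and 1000 lower (8.07%). At an adjusted p under 0.1 there were 3 genes (0.0242%): Pradc1 and Dcxr were higher and Dgka lower. When Myc, whose values set the groups, was kept in the adjustment, Pradc1 and Dgka passed 0.05. The count depended on single tumours: without Squamous 7 limma called 89 genes higher and 62 lower, without Squamous 5 it called 1 higher, and with array weights, which gave Squamous 9 a weight of 0.17 and Squamous 5 a weight of 3.75, it called 182 higher and 97 lower.

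In a further description, every tumour of the high group lay above every tumour of the low group for 642 genes (5.18%), and below for 368 genes (2.97%). The median difference over all genes tested was 0.03, with 6809 of 12392 genes higher and 5583 lower with high Myc. These shares, counts and this median are the background for the gene groups that follow. In the values by tumour, those with high Myc are given in the order Squamous 1, 2, 6, 7 and 8, and those with low Myc in the order Squamous 3, 4, 5 and 9. Differences are high minus low Myc on the log2 scale, with the standard error and adjusted p of limma.

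The genes with the widest gap between the groups included the 3 genes with the smallest adjusted p. Pradc1, which encodes a secreted glycoprotein with a protease-associated domain, measured 8.85, 8.92, 8.70, 9.06 and 8.49 with high Myc and 7.76, 7.48, 7.63 and 7.20 with low Myc. The groups did not overlap, and the difference was 1.28 (SE 0.15, limma adjusted p = 0.0654). Dcxr, a dicarbonyl and L-xylulose reductase, measured 9.98, 9.86, 9.83, 9.61 and 9.36 against 8.50, 8.11, 8.52 and 8.70, a difference of 1.27 (SE 0.16, limma adjusted p = 0.0815). Dgka, a kinase that converts diacylglycerol to phosphatidic acid, was narrow within each group. Its values were 8.96, 9.16, 9.10, 9.17 and 8.87 with high Myc and 10.17, 9.94, 9.87 and 9.96 with low Myc. The difference was −0.93 (SE 0.10, limma adjusted p = 0.0654).

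**Figure D1:**
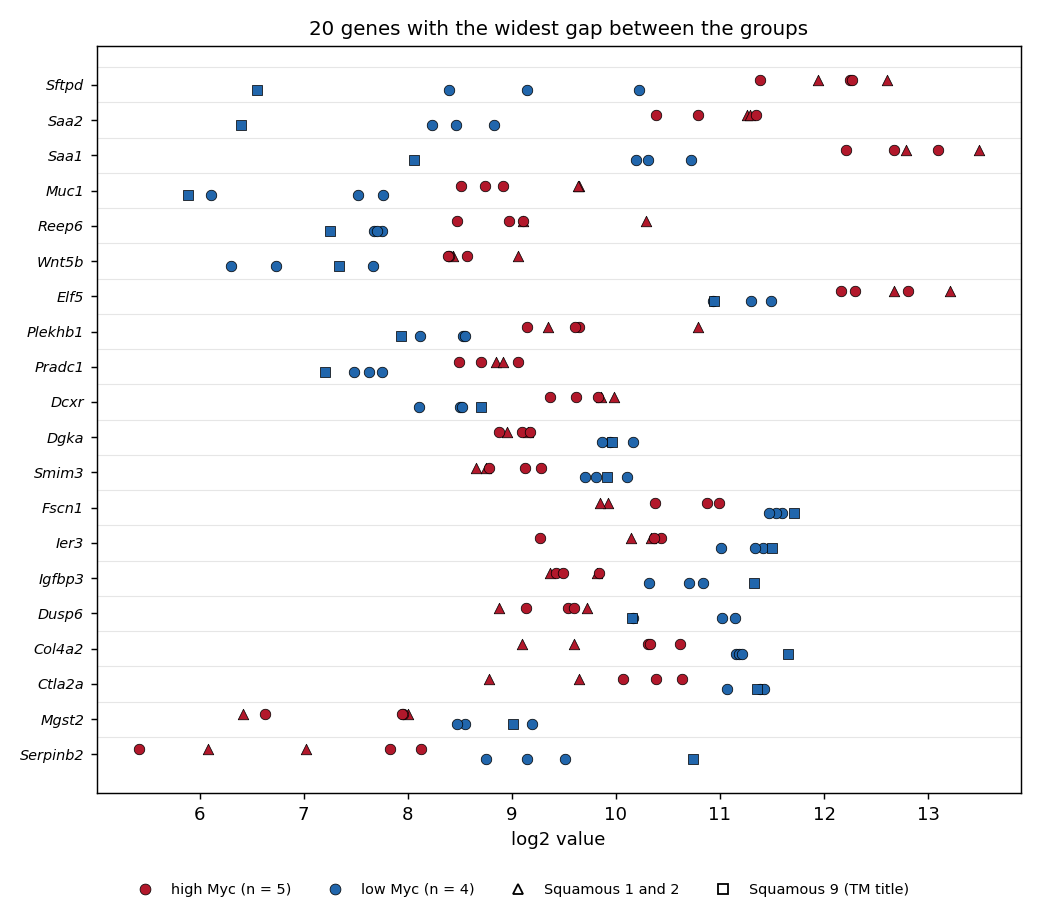
The log2 value in each of the 9 Squamous tumours (x axis) for the 10 genes higher and the 10 genes lower with high Myc that have the widest gap between groups, among genes above the median level. Points are tumours, red for high Myc (n = 5) and blue for low Myc (n = 4), with triangles for Squamous 1 and 2 and a square for Squamous 9; the colours do not overlap within any gene because the genes were chosen for that.

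The other 8 higher genes of this set were Elf5, Muc1, Plekhb1, Reep6, Saa1, Saa2, Sftpd and Wnt5b. Sftpd, a surfactant collectin, was 3.51 higher (SE 0.63), with 11.39 as the lowest high-Myc value and 10.22 as the highest low-Myc value. Saa1 and Saa2, acute-phase serum amyloid proteins, were 3.03 (SE 0.50) and 3.04 (SE 0.46) higher, but these near-identical genes may share probe signal and are not separate evidence. Wnt5b, a Wnt ligand, was 1.56 higher (SE 0.27). The lower genes were Col4a2, Ctla2a, Dgka, Dusp6, Fscn1, Ier3, Igfbp3, Mgst2, Serpinb2 and Smim3. Among them Igfbp3, a binding protein of insulin-like growth factors, differed by −1.21 (SE 0.20) and Fscn1, an actin-bundling protein of cell protrusions, differed by −1.18 (SE 0.24). With the mean of the fibroblast matrix genes as a term, the difference of Fscn1 was −0.58, that of Col4a2, a basement membrane collagen, −0.57 in place of −1.31, and that of Ctla2a −0.58 in place of −1.40. That mean did not overlap between the groups either, so values with this fibroblast term, here and below, cannot separate stroma from Myc group.

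The promoter windows of 3 genes are shown because they hold the E-box and differ in how the gene lay between the groups. RefSeq windows of 300 bases on GRCm38.p6, from 250 bases before to 50 after a start, were matched to 9882 of the genes tested. Cdk4 is a long-known Myc target with 4 E-boxes in its window. Fkbp11, a chaperone-like prolyl isomerase of the endoplasmic reticulum, and Dgka are the E-box genes with non-overlapping groups that had the smallest p in each direction. Their windows are chr10:127063285-127063584 on the plus strand for Cdk4, chr15:98727578-98727877 on the minus strand for Fkbp11 (1 of 2 windows) and chr10:128737563-128737862 on the minus strand for Dgka (1 of 4 windows). Each is written 5′ to 3′ along its gene, with E-boxes in capitals.
Cdk4: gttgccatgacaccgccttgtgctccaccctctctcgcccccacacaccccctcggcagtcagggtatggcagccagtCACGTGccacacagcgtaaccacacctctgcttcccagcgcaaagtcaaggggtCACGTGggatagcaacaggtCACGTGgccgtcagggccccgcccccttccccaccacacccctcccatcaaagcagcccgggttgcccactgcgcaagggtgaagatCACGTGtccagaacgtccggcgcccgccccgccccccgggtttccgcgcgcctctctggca
Fkbp11: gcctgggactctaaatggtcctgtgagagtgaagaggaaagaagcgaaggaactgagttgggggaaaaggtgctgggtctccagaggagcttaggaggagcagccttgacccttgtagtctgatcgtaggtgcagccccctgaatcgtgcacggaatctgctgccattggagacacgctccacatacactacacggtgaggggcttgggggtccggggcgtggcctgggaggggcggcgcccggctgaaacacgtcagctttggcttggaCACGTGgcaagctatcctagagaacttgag
Dgka: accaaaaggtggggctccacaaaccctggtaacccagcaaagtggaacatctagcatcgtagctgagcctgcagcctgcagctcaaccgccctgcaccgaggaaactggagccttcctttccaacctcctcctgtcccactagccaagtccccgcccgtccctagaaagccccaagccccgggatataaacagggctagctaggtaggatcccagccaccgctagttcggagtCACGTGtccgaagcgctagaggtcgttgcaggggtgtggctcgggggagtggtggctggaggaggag

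CACGTG reads the same on both strands, and a gene with several windows was counted if any of them held it. It occurred in 7.15% of all 32851 windows and for 10.8% of the genes tested that had a window. Among genes with non-overlapping groups it was found for 10.9% of those higher with high Myc (59 of 542) and 8.28% of those lower (24 of 290). The share was 25.8% in the nucleolar list (8 of 31) and 32.3% in the list of Myc targets of metabolism and translation (10 of 31). Fkbp11 was 1.56 higher with high Myc (SE 0.28, limma adjusted p = 0.127), Dgka lay lower as given above, and Cdk4, with 4 E-boxes, was not higher. A match is a description of these letters, not a measured binding site.

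Genes that Myc is known to raise had list medians near 0. The nucleolar ribosome biogenesis list, genes for making ribosomes, had 19 of 35 measured members higher and 16 lower with high Myc, with a median of 0.01 beside 0.03 for all genes. None of its 35 members had non-overlapping groups and none had an unadjusted p under 0.05. The list mean was 9.39 ± 0.18 (SD, n = 5) with high and 9.38 ± 0.16 (SD, n = 4) with low Myc. Ncl, which encodes nucleolin, measured 12.63, 12.27, 12.48, 12.50 and 12.15 against 12.50, 12.43, 12.29 and 12.73, a difference of −0.08 with a 95% confidence interval of −0.38 to 0.22. The interval was −0.33 to 0.19 for Npm1, the nucleolar histone chaperone nucleophosmin, and −0.44 to 0.33 for Nop56, a core protein of the particles that modify ribosomal RNA. The sign of these 3 differences changed with the scaling, and for Ncl with quantile normalization the value was 0.04.

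The list of Myc targets in metabolism and translation had 16 of 34 members higher and 18 lower, with a median of −0.00. Prdx3, a mitochondrial peroxidase, was the only member above all low-Myc tumours: 10.14, 10.34, 10.03, 9.62 and 9.90 against 9.13, 9.30, 9.48 and 9.03, a difference of 0.77 (SE 0.16, limma adjusted p = 0.127), or 0.49 with the fibroblast term. Eif5a, a translation factor, was the only member below them, by a difference of −0.19. Both were chosen after their values were seen. Odc1, the first enzyme of polyamine synthesis and a standard Myc target, measured 10.52, 10.46, 10.49, 10.88 and 10.79 with high Myc and 11.54, 10.49, 11.53 and 11.12 with low Myc. Its difference was −0.55 (SE 0.22, limma adjusted p = 0.247), against the direction in which Myc is known to act, with Squamous 4 among the high-Myc values. Cdk4, the kinase of early G1, measured 9.96, 9.96, 9.82, 10.18 and 9.67 against 10.15, 10.14, 10.11 and 10.40, a difference of −0.28 (SE 0.12, limma adjusted p = 0.276). Cad, an enzyme of pyrimidine synthesis, differed by −0.36 (SE 0.21), and Ccnd2, a G1 cyclin, by −1.06 (SE 0.45), or −0.19 with the fibroblast term.

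**Figure D2:**
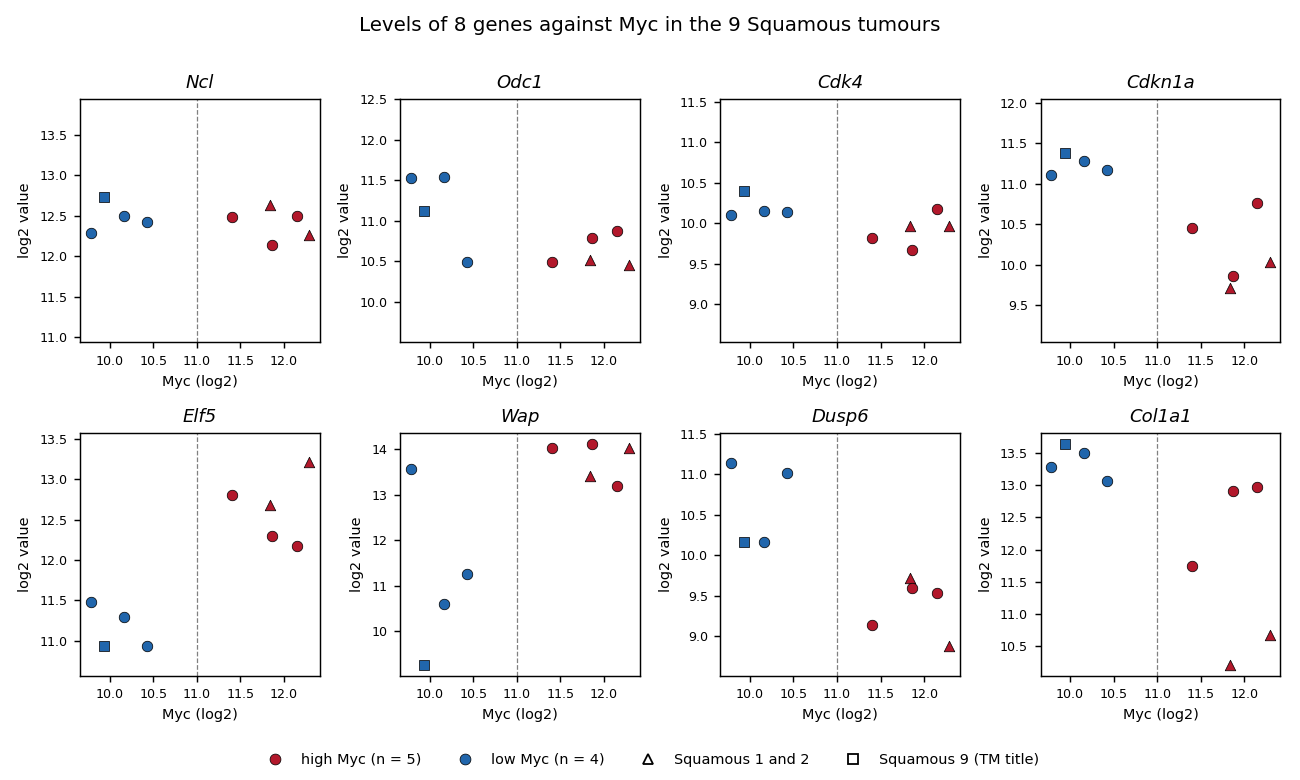
The log2 value of 8 genes (y axes, each spanning at least 3 log2 units) against Myc (x axis) in the 9 Squamous tumours, with a dashed line at the threshold of 11. Ncl is level across the range of Myc, Cdkn1a, Elf5 and Dusp6 lie in separate ranges on the 2 sides of the line, and the Col1a1 values of Squamous 1 and 2 (triangles) lie below all others; the square is Squamous 9.

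Partners and antagonists of Myc had small differences. Of 18 measured members of the Myc-Max network, 12 lay higher and 6 lower with high Myc, with a median of 0.10 and no member with non-overlapping groups. Max, the obligate partner, differed by −0.04 (95% confidence interval −0.33 to 0.25), and its sign changed with the scaling. Mlxip, a glucose-sensing relative of the Max network, was the only member at an unadjusted p under 0.05 in limma, 0.41 higher (SE 0.16, adjusted p = 0.235). The related Mycn, at 6.53 to 7.18 in the 9 tumours, and Mycl, at 5.47 to 6.13, differed by 0.17 (SE 0.13) and −0.14 (SE 0.17). Fbxw7, the ubiquitin ligase subunit whose recognition of Myc the T58A change disrupts, was 0.22 higher (SE 0.13).

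Genes that Myc is known to lower lay lower with high Myc in 21 of 25 members, with a median of −0.52. The list mean was 9.40 ± 0.28 (SD, n = 5) against 9.83 ± 0.09 (SD, n = 4), without overlap, and 5 members had non-overlapping groups, all lower: Cdkn1a, Cdkn2b, Cav1, Dusp1 and Btg1. Cdkn1a encodes the cell-cycle inhibitor p21. It measured 9.71, 10.04, 10.45, 10.76 and 9.87 with high Myc and 11.29, 11.18, 11.11 and 11.38 with low Myc, a difference of −1.07 (SE 0.21, limma adjusted p = 0.127). Cdkn2b, the inhibitor p15, measured 7.68, 7.85, 8.19, 8.70 and 7.90 against 9.01, 8.78, 8.98 and 8.77, a difference of −0.82 (SE 0.20, limma adjusted p = 0.140), or −0.51 with the fibroblast term. In both genes Squamous 7 came closest to the low-Myc tumours. With the fibroblast term the list median was −0.20, and it was −0.31 without Squamous 1 and 2, −0.24 with array weights and −0.27 with the mean of each gene's probe sets. The other 4 members lay higher. Ndrg1, a stress-response gene that Myc is also known to lower, was 0.60 higher (SE 0.22), and Itga6, an integrin of basal epithelial cells, 0.99 (SE 0.34). The cell-cycle inhibitors Cdkn1c and Cdkn1b were 0.78 (SE 0.67) and 0.20 (SE 0.33) higher, so the inhibitors did not all lie lower.

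Genes around Arf, p53 and cell death lay mostly lower with high Myc. Of 19 measured members 13 lay lower and 6 higher, with a median of −0.28. The list means did not overlap, at 8.54 ± 0.08 (SD, n = 5) and 8.83 ± 0.06 (SD, n = 4), and the non-overlapping ones were Phlda3 and Zmat3, both p53 targets and both lower. Phlda3, an inhibitor of Akt signalling, measured 8.42, 8.02, 9.19, 9.34 and 8.88 against 9.67, 9.81, 9.62 and 10.07, a difference of −1.02 (SE 0.26, limma adjusted p = 0.150), or −0.47 with the fibroblast term. Cdkn2a, the locus of Arf and p16, differed by −0.40 (SE 0.19). Bcl2l11 encodes Bim, a death-promoting protein, and differed by 0.17 (95% confidence interval −0.26 to 0.60), with a value of −0.12 when its probe sets were averaged. Trp53 itself was not analysed here.

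Proliferation genes did not lie higher with high Myc: 28 of 34 were lower, with a median of −0.19, no member with non-overlapping groups and none at an unadjusted p under 0.05. That median was −0.07 without Squamous 1 and 2 and with the fibroblast term, and its sign changed with array weights, at 0.01. The list means overlapped widely, at 8.43 ± 0.41 (SD, n = 5) and 8.62 ± 0.23 (SD, n = 4). Mki67, a marker of cycling cells, differed by −0.21 (95% confidence interval −0.83 to 0.42), with 0.04 without Squamous 1 and 2 and with the fibroblast term. Ribosomal protein genes had a median of −0.07 over 16 members, and 0.07 with array weights. Glycolysis and hypoxia genes had a median of −0.31, with 18 of 20 lower, and Car9, a hypoxia-induced carbonic anhydrase, as the only member with non-overlapping groups. Respiratory chain genes lay slightly higher in 20 of 23 members, with a median of 0.20 and Uqcrc2, a subunit of complex III, as the only member with non-overlapping groups (0.36 higher, SE 0.13).

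Milk and milk-secretion genes had the highest list median in the 9 tumours, though not with array weights, where the milk list had 0.90 and the skeletal muscle list 1.45. All 19 measured members lay higher with high Myc, with a median of 1.16, 16 of them at an unadjusted p under 0.05 in limma, and 6 had non-overlapping groups: Lalba, Glycam1, Xdh, Plin2, Muc1 and Folr1. For Glycam1 the groups all but touched, with 13.772 as the lowest high-Myc value and 13.771 as the highest low-Myc value. Milk genes are among the most abundant transcripts of secretory mammary cells, and several were close to the top of the array range in every tumour. In bulk tissue, fewer cells of a type and less RNA per cell cannot be told apart.

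Wap encodes whey acidic protein. It measured 13.41, 14.03, 14.02, 13.20 and 14.12 with high Myc and 10.59, 11.26, 13.57 and 9.26 with low Myc, a difference of 2.59 (SE 0.71, limma adjusted p = 0.161), or 1.32 with array weights. Squamous 5 was the low-Myc tumour that overlapped the high group. Lalba, the regulatory subunit of lactose synthase, measured 12.23, 12.86, 12.95, 11.82 and 12.75 against 10.90, 8.05, 11.73 and 8.71, a difference of 2.67 (SE 0.70, limma adjusted p = 0.151). Folr1, a folate receptor of the milk-secreting cell, measured 10.47, 11.49, 10.38, 9.36 and 10.29 against 7.97, 7.60, 9.06 and 7.22, a difference of 2.44 (SE 0.45, limma adjusted p = 0.127). Muc1, a mucin of the apical surface, was 2.27 higher (SE 0.44). Btn1a1, a butyrophilin of the milk fat globule, measured 12.35, 12.60, 12.86, 11.15 and 12.69 against 9.68, 8.68, 11.36 and 9.34, a difference of 2.56 (SE 0.53). Its groups overlapped because Squamous 7 lay below Squamous 5.

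The same pair of tumours kept the list means from separating. The milk list mean was 11.60, 12.20, 11.79, 11.19 and 12.14 with high Myc and 10.45, 9.78, 11.32 and 9.65 with low Myc, so that Squamous 5 lay above Squamous 7. Squamous 5 also had the lowest Myc of the 9 tumours. The caseins Csn1s1, Csn1s2a, Csn2 and Csn3 differed less, from 0.56 to 0.89. Csn1s2b, a casein with lower group means of 7.99 and 5.84, differed by 2.15 (SE 1.30). Csn2, beta-casein, measured 14.27, 14.31, 14.32, 14.19 and 14.39 against 13.75, 13.63, 14.22 and 12.87. Its difference was 0.68 (SE 0.23, limma adjusted p = 0.200), or 0.43 without Squamous 9. Values near 14 lie at the upper end of these arrays. The median of the milk list lay between 0.84 and 1.49 in the 21 alternatives run, with the lowest value, 0.84, when the fibroblast matrix mean was a term.

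Stat5 is the known mediator of prolactin on milk genes. The windows of the 3 genes with the largest differences among milk genes holding a Stat5-type motif are shown. They are chr15:103565032-103565331 on the minus strand for Glycam1, a mucin-like milk protein, chr5:87665958-87666257 on the plus strand for Csn1s1, alpha-S1-casein, and chr5:87699376-87699675 on the minus strand for Csn2, from RefSeq on GRCm38.p6. Capitals mark TTCNNNGAA, which reads the same on both strands.
Glycam1: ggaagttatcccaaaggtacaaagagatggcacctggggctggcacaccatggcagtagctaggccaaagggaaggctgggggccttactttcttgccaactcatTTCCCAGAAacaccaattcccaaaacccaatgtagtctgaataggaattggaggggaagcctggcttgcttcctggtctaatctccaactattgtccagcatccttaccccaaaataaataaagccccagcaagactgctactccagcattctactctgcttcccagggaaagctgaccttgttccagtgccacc
Csn1s1: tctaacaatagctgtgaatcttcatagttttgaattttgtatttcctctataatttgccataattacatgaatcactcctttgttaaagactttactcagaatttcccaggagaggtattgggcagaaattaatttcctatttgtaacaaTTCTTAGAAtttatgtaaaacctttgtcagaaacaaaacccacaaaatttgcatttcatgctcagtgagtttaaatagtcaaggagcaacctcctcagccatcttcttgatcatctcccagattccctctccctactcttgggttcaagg
Csn2: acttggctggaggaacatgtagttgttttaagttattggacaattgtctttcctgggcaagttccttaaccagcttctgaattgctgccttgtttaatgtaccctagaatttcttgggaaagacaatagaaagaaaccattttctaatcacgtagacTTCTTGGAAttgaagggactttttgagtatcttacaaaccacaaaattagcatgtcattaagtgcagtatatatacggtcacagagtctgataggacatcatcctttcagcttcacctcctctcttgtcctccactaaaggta

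TTCNNNGAA occurred in 8.3% of all windows and for 8.45% of the genes tested. It was found for 4 of the 13 milk genes with a window (30.8%), the 3 above and Csn1s2a, and for 8.67% of the genes that were higher with non-overlapping groups. Glycam1 was 2.02 higher with high Myc, Csn1s1 0.89, Csn2 0.68 and Csn1s2a 0.56. Among the 13, Lalba, Wap, Olah and Muc1 had larger differences than these, from 2.27 to 2.67, and held no motif. Stat5a itself measured 10.20, 10.88, 10.20, 8.81 and 10.33 with high Myc and 8.34, 8.49, 8.89 and 9.03 with low Myc, a difference of 1.40 (SE 0.37, limma adjusted p = 0.151). Squamous 7 lay within the low-Myc range and the other 4 high-Myc tumours above it.

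Luminal genes were mixed, with 11 of 18 higher, 7 lower and a median of 0.35. Elf5, the transcription factor that directs alveolar cells, measured 12.67, 13.21, 12.80, 12.17 and 12.30 with high Myc and 11.30, 10.94, 11.49 and 10.94 with low Myc. The groups were 0.68 apart at their nearest tumours, and the difference was 1.46 (SE 0.22, limma adjusted p = 0.127). Krt19, a keratin of luminal cells, was 1.69 higher (SE 0.46), also with no overlap. Ly6d had the largest absolute difference of the list, at −1.77 (SE 0.62), with means of 9.13 with high and 10.90 with low Myc, but its groups overlapped. Tnfsf11, the RANKL signal that hormone-sensing luminal cells send to their neighbours, was the only member lower with no overlap, at −1.11 (SE 0.26). The hormone receptor genes Esr1 and Pgr differed by −0.04 and 0.40. Their group means of 4.01 to 4.42 lay near the low end of these arrays, so little can be read from them. Tnfsf11 was also low, with means of 4.68 with high and 5.79 with low Myc. The luminal median was 0.10 with the fibroblast term, 0.16 with array weights and 0.19 without Squamous 9.

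Junction genes were mixed, with 11 of 23 higher, 12 lower and a median of −0.05. Among tight-junction genes Ocln was 1.39 higher (SE 0.42) and Tjp3 1.15 higher with non-overlapping groups, while Cldn1 differed by −0.83. Among desmosome genes Pkp2 was 1.09 higher with non-overlapping groups and Dsg2 0.44 higher with overlap. Lower were Pkp1, which is typical of stratified epithelium, at −1.45 (SE 0.49), Dsp at −1.29, Dsc2 at −1.04, Pkp3 at −0.84 and Jup at −0.37. The groups overlapped for each of these lower genes. Cdh1, E-cadherin, differed by 0.14 (95% confidence interval −0.31 to 0.59), with −0.04 without Squamous 1 and 2.

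**Figure D3:**
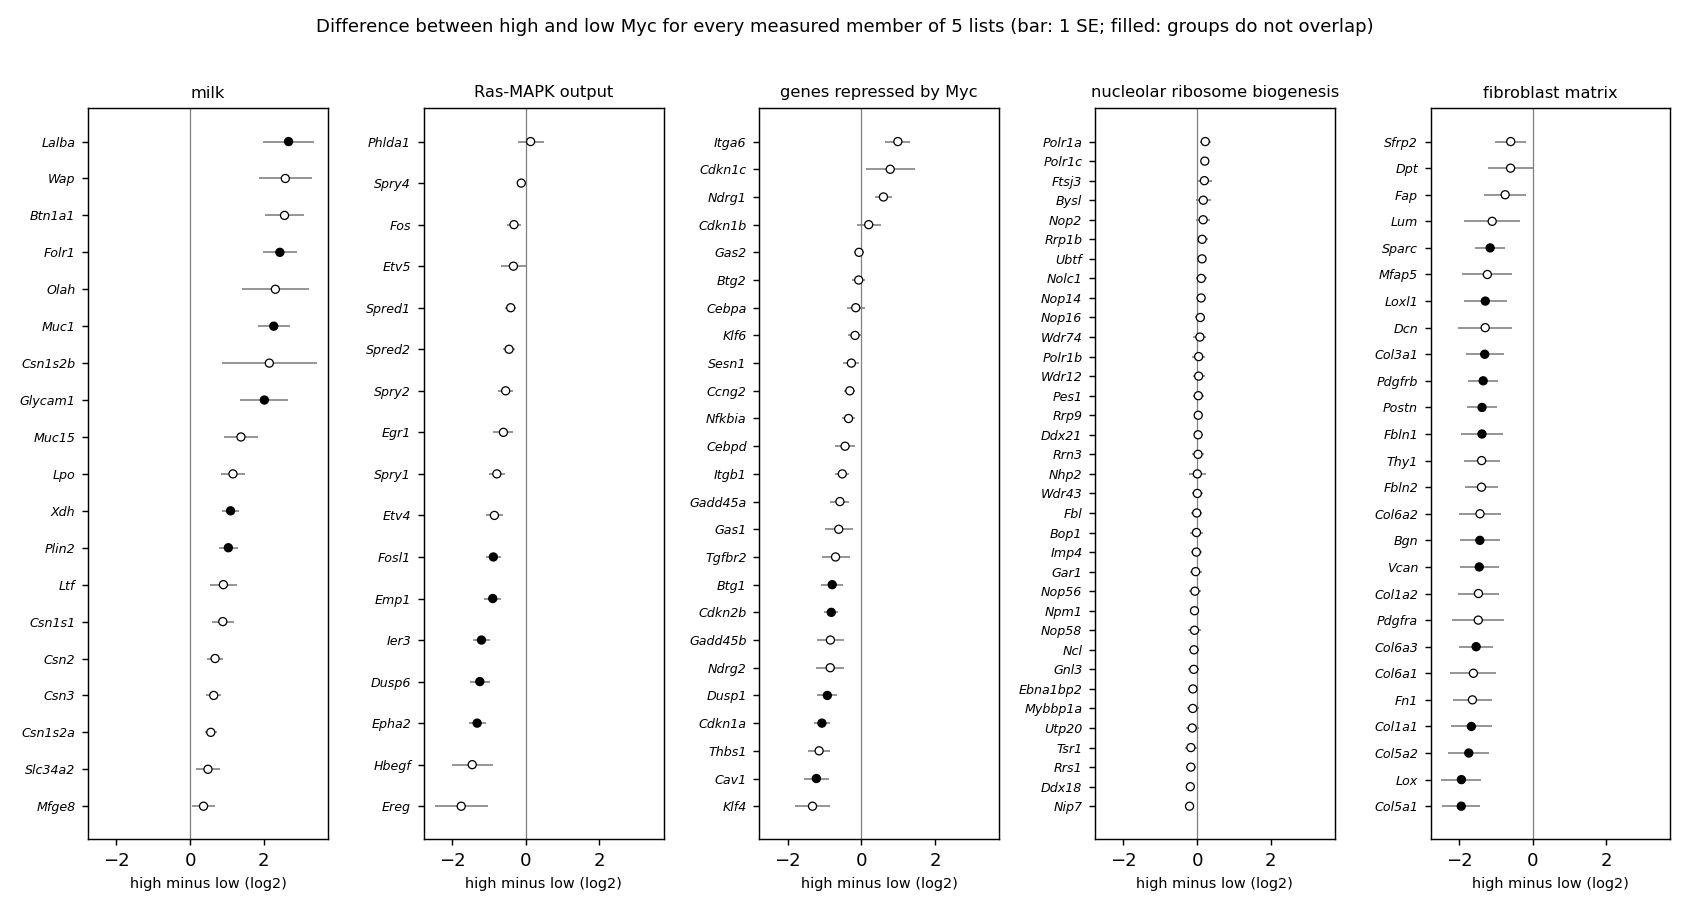
The difference between high and low Myc (x axis, log2) for every measured member of 5 lists, 1 row per gene, with bars of 1 standard error from limma and filled points where the groups do not overlap. All 19 milk genes lie to the right of 0, 16 of 17 Ras-MAPK output genes, 21 of 25 genes repressed by Myc and all 26 fibroblast matrix genes lie to the left, and the 35 nucleolar genes lie around 0.

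Genes that report Ras-MAPK signalling lay lower with high Myc in 16 of 17 members, with a median of −0.78, and 12 of them had an unadjusted p under 0.05 in limma. The list mean was 8.37, 8.18, 8.51, 8.48 and 8.15 with high Myc and 9.11, 9.15, 9.08 and 9.08 with low Myc, without overlap, as was also the case for genes repressed by Myc, Arf-p53 and apoptosis, fibroblast matrix and endothelial genes. The 5 members with non-overlapping groups were Dusp6, Fosl1, Ier3, Epha2 and Emp1. Dusp6, a phosphatase that is induced by ERK and switches it off, measured 9.72, 8.88, 9.13, 9.54 and 9.59 against 10.17, 11.02, 11.14 and 10.16, a difference of −1.25 (SE 0.27, limma adjusted p = 0.127). Epha2, an ephrin receptor kinase, measured 7.26, 6.65, 7.49, 7.80 and 6.91 against 8.35, 8.81, 8.38 and 8.63, a difference of −1.32 (SE 0.23, limma adjusted p = 0.127). Ier3, an immediate early gene, differed by −1.20 (SE 0.24). The members with the largest absolute differences were Hbegf, at −1.45 (SE 0.55, limma adjusted p = 0.234), and Ereg, at −1.75 (SE 0.72, limma adjusted p = 0.254), both ligands of the EGF receptor. Their groups overlapped, and the value of Ereg was −0.94 without Squamous 9. Its median was −0.54 with the fibroblast term and −0.56 without Squamous 1 and 2, and it lay below 0 in all 21 alternatives.

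Keratinocyte genes lay lower with high Myc and varied strongly within each group. Basal keratinocyte genes were lower in 15 of 16 members, with a median of −0.82. Krt5 measured 12.06, 8.89, 11.78, 11.24 and 9.64 with high Myc and 12.55, 11.38, 11.55 and 12.62 with low Myc, a difference of −1.30 (SE 0.66, limma adjusted p = 0.329), or −0.84 without Squamous 2. Squamous 2 and Squamous 8 were low, and the other 3 high-Myc tumours lay near or within the range of the low group. Trp63, the transcription factor of stratified epithelium, differed by −1.60 (SE 0.57) and Sfn, the 14-3-3 sigma protein, by −1.69 (SE 0.55), the only member of this list with non-overlapping groups.

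Genes of the suprabasal layers and the cornified envelope were lower in 30 of 32 members, with a median of −1.63. The list mean was 9.22, 7.78, 9.39, 8.43 and 6.36 with high Myc and 9.90, 9.03, 8.63 and 11.22 with low Myc. The groups overlapped, with Squamous 8 far down and Squamous 9 far up. Tgm1 and Tgm3, which crosslink the envelope, Ppl, a plakin, and Serpinb2, a protease inhibitor, were the members without overlap. Serpinb2 measured 6.08, 7.02, 7.83, 8.13 and 5.42 against 9.51, 8.76, 9.15 and 10.74, a difference of −2.64 (SE 0.60, limma adjusted p = 0.138). Krt10 differed by −1.91 (SE 1.50), with 0.96 under array weights, so that no direction can be given for it. This median was −1.06 without Squamous 9 and −0.51 with array weights. Hair follicle genes were lower in 21 of 23 members, with a median of −0.70, but with the fibroblast term the median was 0.15.

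**Figure D4:**
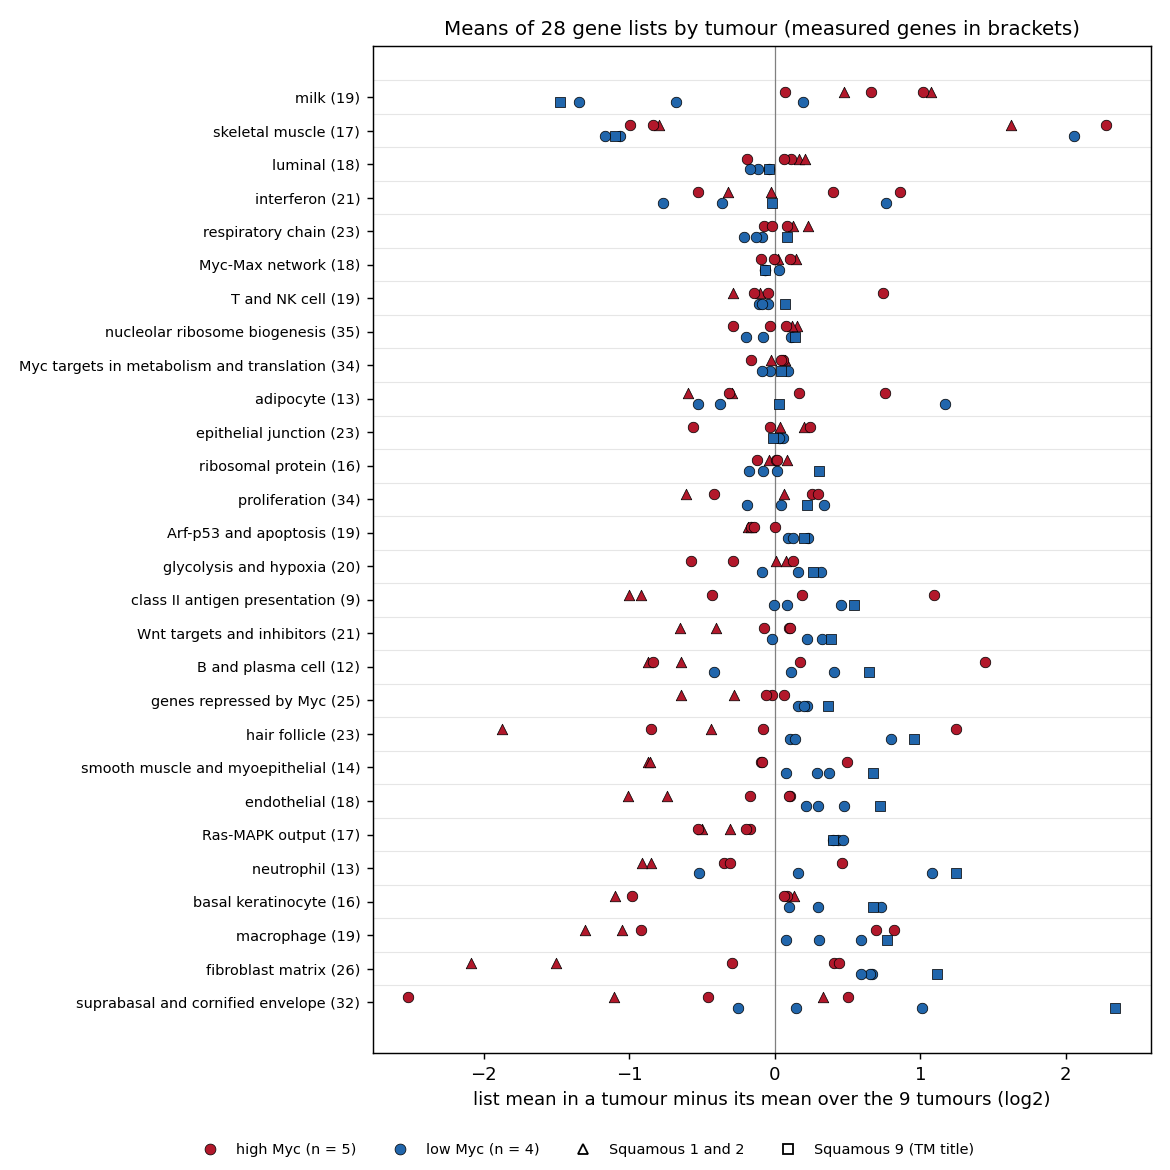
The mean of each of 28 gene lists in each of the 9 tumours (x axis, log2, minus the mean of that list over the tumours), with the number of measured genes in brackets and the lists ordered by their median difference. Red points are high Myc (n = 5), blue points low Myc (n = 4), triangles Squamous 1 and 2, the square Squamous 9; the groups do not overlap for Ras-MAPK output, genes repressed by Myc, Arf-p53 and apoptosis, fibroblast matrix and endothelial genes, while the milk list overlaps through Squamous 5 and Squamous 7.

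Stromal genes lay lower with high Myc as well. All 26 fibroblast matrix genes were lower, with a median of −1.39, and 13 of them had non-overlapping groups. The list mean was 8.34, 8.92, 10.13, 10.83 and 10.86 with high Myc and 11.09, 11.08, 11.01 and 11.54 with low Myc. Squamous 1 and 2 were far below the others, and Squamous 7 and 8 were close to the low-Myc tumours. Col1a1, a chain of type I collagen, measured 10.22, 10.68, 11.75, 12.97 and 12.90 against 13.50, 13.06, 13.28 and 13.64, a difference of −1.66 (SE 0.56, limma adjusted p = 0.202), or −0.82 without Squamous 1 and 2. The median of the list was −0.64 without these 2 tumours. Col5a1, a fibril-starting collagen, differed by −1.94 (SE 0.52) and Lox, a collagen crosslinker, by −1.93 (SE 0.54).

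Endothelial genes followed the same tumours, lower in 17 of 18 members, with a median of −0.76 and 8 members without overlap. Pecam1, an endothelial adhesion protein, measured 5.82, 6.50, 7.34, 7.55 and 7.66 against 8.11, 8.36, 8.12 and 8.49, a difference of −1.30 (SE 0.36, limma adjusted p = 0.161), or −0.37 with the fibroblast term. Smooth muscle and myoepithelial genes had a median of −0.71, with 11 of 14 lower and Smtn and Cald1 without overlap. The median of the endothelial list was −0.16 and that of the smooth muscle list −0.04 with the fibroblast term. The fibroblast matrix mean itself did not overlap between the groups, at 8.34 to 10.86 with high and 11.01 to 11.54 with low Myc. Stroma and Myc group therefore cannot be told apart in these 9 tumours. Values with this term, or without some tumours, do not measure the share of the stroma in the differences of epithelial genes, which was not tested.

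**Figure D5:**
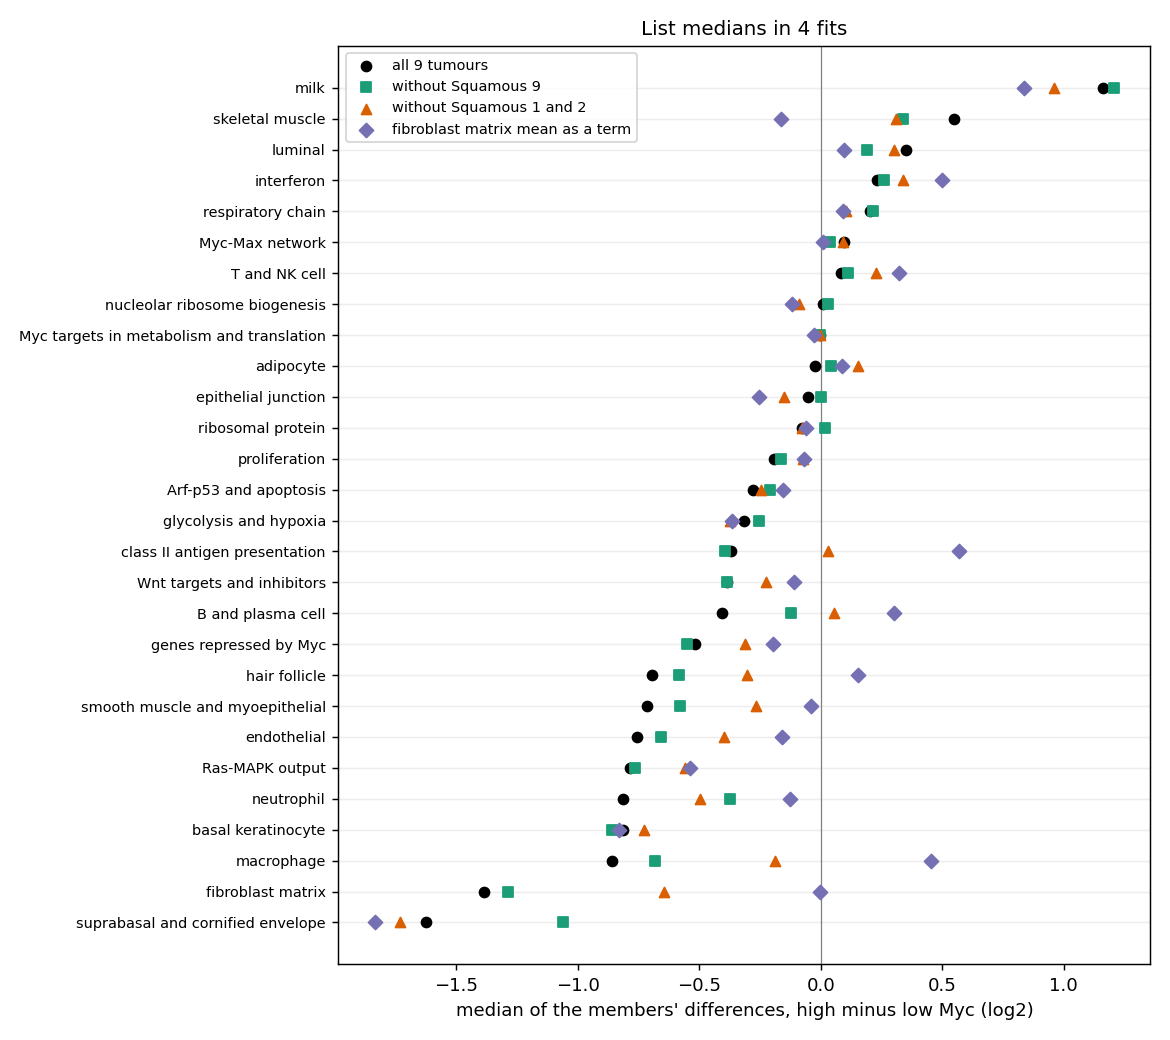
The median of the members' differences between high and low Myc (x axis, log2) for 28 gene lists in 4 fits: all 9 tumours, without Squamous 9, without Squamous 1 and 2, and with the fibroblast matrix mean as a term. The milk list stays right of 0 and the Ras-MAPK output, basal keratinocyte and cornified lists stay left of 0 in all 4, while the macrophage list moves from −0.86 to 0.45 with the fibroblast term.

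Immune genes depended on which tumours and terms entered. Macrophage genes were lower in 19 of 19 members, with a median of −0.86, but no member had non-overlapping groups: the list mean was 10.53 in Squamous 7 and 10.66 in Squamous 8 against 8.53 to 8.92 in the other high-Myc tumours and 9.91 to 10.61 with low Myc. Neutrophil genes had a median of −0.81, class II antigen presentation genes −0.37, B and plasma cell genes −0.41, T and NK cell genes 0.08 and interferon genes 0.23. With the fibroblast term the medians of the macrophage, class II and B and plasma cell lists were 0.45, 0.57 and 0.30. Cxcl2, a chemokine for neutrophils, ranged from 5.40 to 7.95 with high Myc and from 6.82 to 12.36 with low Myc.

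Wnt targets and inhibitors had a median of −0.39, with 15 of 21 lower. Sox9, a transcription factor of progenitor cells, was the only member without overlap and lay 0.90 higher (SE 0.24), while Wif1, a secreted Wnt inhibitor, differed by −1.75 (SE 0.75), or 0.01 with the fibroblast term. Adipocyte genes had a median of −0.02. Within them Thrsp, a lipid-synthesis gene that secretory epithelium also expresses, was 1.88 higher (SE 0.65), and Fabp4, a fatty acid carrier of fat cells and endothelium, differed by −1.67 (SE 0.67). Skeletal muscle genes lay higher with high Myc in 17 of 17 members, with a median of 0.55, but none had an unadjusted p under 0.05 in limma and none had non-overlapping groups. Their list means were high in Squamous 1, 3 and 6, at 8.11, 8.54 and 8.76 against 5.32 to 5.69 in the other tumours, of which Squamous 3 had low Myc. The skeletal muscle median was −0.17 with the fibroblast term and 1.45 with array weights.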

How the data were processed

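RNA of the tumours was extracted with RNeasy columns and labelled with biotin for 1 Affymetrix array per tumour, per the labels' protocols. The values the authors deposited are log2 values per probe set. How the authors normalised them is not given in the sources used here; that they are log2 follows from their range. They were used without further normalization. Of 22690 probe sets, 64 were controls, 20380 had 1 gene symbol in the supplied probe table, 691 had several and 1555 none, and 20351 were matched by gene identifier to the supplied gene table. They covered 12393 genes. For the 4956 genes with more than 1 probe set, the probe set of highest mean in the 17 arrays stood for the gene.

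High and low Myc were compared in the 9 Squamous tumours with limma 3.58.1 in R 4.3.3, two-sided, with Benjamini-Hochberg adjustment over all genes and a threshold of 0.05. Myc was left out of the fit because its values set the groups. Lists are described by counts and medians without a test. The 28 lists had 648 entries, of which 574 were measured, and 3 genes were in several lists. The groups, members and lists were chosen with earlier results of these data known. Named genes were the 10 with the widest gap between groups in each direction among genes above the median level, the 2 largest absolute differences of each list, and fixed genes such as Max, Ncl, Odc1 and Cdkn1a. Stat5a, Folr1, Btn1a1, Epha2, Cdkn2b, Fkbp11 and other list members that make up a count were named after their values were seen. Symbols of probe sets ending in x_at or s_at, such as those of Cdk4, Krt14 and Nop56, may read more than 1 transcript.

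The alternatives were array sets, scalings, probe set summaries, a level filter, a trended and robust fit, array weights, Squamous 7 and 8 averaged, Myc as a continuous level, the fibroblast matrix mean as a term and leaving out tumours. The macrophage mean as a term and Myc kept in the adjustment were added after seeing the data. The model was tested on simulated data. Python 3.11.15, pandas 2.3.3, numpy 2.4.6 and matplotlib 3.10.9 were used.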

Additional observations from a re-analysis of the deposited data

Results flagged for a closer look

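In 18 of 272 groups checked, the highest or lowest tumour lay further from the others than Dixon's 95% critical value allows. Chance gives about 1 in 20 such groups, and many of these genes share tumours, so the values are given without explanation.

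Squamous 9, the low-Myc tumour with the TM title, accounted for 6 of them. Its fibroblast matrix list mean was 11.54 against 11.01 to 11.09 in the other low-Myc tumours. Cdk4 was 10.40 against 10.11 to 10.15, Col4a2 11.66 against 11.16 to 11.21 and Ivl, a cornified envelope precursor, 6.63 against 5.31 to 5.52. Mycn was 6.53 against 7.10 to 7.13 and Reep6 7.25 against 7.67 to 7.75. Skeletal muscle genes set Squamous 3 apart from the other low-Myc tumours, with a list mean of 8.54 against 5.32 to 5.43, Myh4 at 8.28 against 3.73 to 4.50 and Tnnc2 at 10.51 against 4.55 to 4.78. In Squamous 4 the Myc-Max network mean was 8.21 against 8.11 to 8.12.

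Among the high-Myc tumours, Squamous 8 stood apart in the T and NK cell list mean, 6.32 against 5.29 to 5.52, and in Cd28, a T cell receptor partner, 4.92 against 4.21 to 4.35. Egln3, a hypoxia-induced hydroxylase, was 7.53 there against 9.89 to 10.76, Ier3 9.27 against 10.15 to 10.43 and Nop56 9.88 against 10.27 to 10.40. Squamous 7 had the highest Arf-p53 and apoptosis mean, 8.68 against 8.49 to 8.53. Usp18, an interferon-induced protease, was 5.49 in Squamous 6 against 7.49 to 7.91, and Wnt5b was 9.06 in Squamous 1 against 8.38 to 8.57.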

How the results depend on the processing

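The number of genes past an adjusted p of 0.05 was 0 in both directions for all 9 tumours. Leaving out 1 tumour at a time gave 0 to 89 higher and 0 to 62 lower, with the highest counts without Squamous 7. Array weights gave 182 higher and 97 lower, genes above the median level 2 and 1, Squamous 7 and 8 averaged 2 and 2, Myc kept in the adjustment 1 and 1, and an adjusted p of 0.1 gave 2 and 1. Genes at an unadjusted p under 0.05 numbered 300 higher and 260 lower with the fibroblast matrix mean as a term, 606 and 585 with the macrophage mean as a term, 537 and 464 without Squamous 1 and 2, and 654 and 649 among genes above the median level. With array weights 1846 were higher.

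List medians kept their sign for 16 of 28 lists in 21 alternatives each. With the fibroblast term they were 0.0091 for the Myc-Max network, −0.20 for genes repressed by Myc, −0.15 for Arf-p53 and apoptosis, 0.10 for luminal, −0.54 for Ras-MAPK output, −0.041 for smooth muscle, −0.16 for endothelial, 0.45 for macrophage, −0.13 for neutrophil and 0.57 for class II genes. With the macrophage term they were 0.20 for luminal and −0.61 for Ras-MAPK output genes. The fibroblast matrix median of −0.0020 with its own mean as a term, and the macrophage median of 0.067 with its own, are near 0 by construction. Array weights gave −0.24 for genes repressed by Myc, 0.074 for ribosomal protein, 0.16 for luminal and −0.23 for smooth muscle genes. The mean of probe sets gave 0.014 for the Myc-Max network and −0.27 for genes repressed by Myc. Genes above the median level gave 0.62 for luminal, −0.61 for Ras-MAPK output and −1.58 for neutrophil genes. Luminal genes had a median of 0.19 on numbered arrays only, and 0.19 to 0.45 when 1 tumour at a time was left out. For Wnt targets and inhibitors that range was −0.68 to −0.31. Without Squamous 1 and 2 the Ras-MAPK output median was −0.56. The cause of the other changes was not tested.

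Of 108 named genes, 90 kept their sign in every alternative and 25 passed the threshold in at least 1. No paired analysis was possible because the replicate numbers only follow accession order.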
